A study of Rattus norvegicus with 6 samples.

Results

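The glutathione and antioxidant enzymes described here are 10 rat genes: Gpx1, Gsta4, Gstm1, Gstm2, Gstp1, Nqo1, Hmox1, Gclc, Gclm and Txnrd1. They were taken as every probe set of the array annotated to exactly 1 gene symbol among these, which gave 10 of 14217 named genes and 12 of 31042 non-control probe sets, with 2 probe sets each for Gclc and Txnrd1. Transcripts were measured on 6 single-colour Affymetrix rat arrays. Of these, 4 held RNA from RK3E cells transformed by GLI1, the zinc finger transcription factor through which Hedgehog signalling reaches its target genes. The other 2 held RNA from untransfected, parental RK3E cells. RK3E cells are rat kidney epithelial cells made immortal by an adenoviral oncogene, which both groups carry, and all cells grew in DMEM with serum. The GLI1 cells came from transfection with a GLI1 expression construct, after which single transformed foci were picked and grown on, so that each line descends from a focus. By the titles, 1 GLI1 array is of clone I, 2 are of clone II and 1 has no clone named. GLI1 values are given below in the order no clone named, clone I, clone II replicate 1, clone II replicate 2, and parental values as replicate 1, replicate 2.

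Cells keep reactive oxygen species and reactive electrophiles in check largely with glutathione, a cysteine-containing tripeptide. Glutamate-cysteine ligase makes its precursor, glutathione peroxidases use it to reduce peroxides, glutathione transferases couple it to electrophiles, and thioredoxin reductase drives a parallel system. Many of these genes are induced by the transcription factor NRF2, which binds antioxidant response elements in their promoters, and kidney epithelium is known for high use of glutathione.

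Upstream sequence was examined because several of these genes are textbook NRF2 targets. The 250 bases before the start site were taken from RefSeq promoters on GRCr8, which held 10 entries for 9 of the 10 genes (2 for Txnrd1), and were searched on both strands for the element core TGACNNNGC. The core was present in 3 of these 10 promoters, of 3 genes, against 10.1% of all 33469 promoters searched in the same way. In the same 3 the core was followed by an A, against 2.42% of all promoters. A GLI site, GACCACCCA, was in none of the 10 and in 0.338% of all promoters. A match is a description of letters and not a shown binding site, and its absence from a window this short says nothing of the factor. The 3 genes with a match are shown with the match in capitals. For Gstp1 (chr1:210769706-210769955, minus strand) it began 61 bases before the start site, for Gclm (chr2:213031885-213032134, plus strand) 172 bases before it and on the opposite strand, and for Txnrd1 (chr7:22755905-22756154, minus strand) 78 bases before it, also on the opposite strand.
Gstp1: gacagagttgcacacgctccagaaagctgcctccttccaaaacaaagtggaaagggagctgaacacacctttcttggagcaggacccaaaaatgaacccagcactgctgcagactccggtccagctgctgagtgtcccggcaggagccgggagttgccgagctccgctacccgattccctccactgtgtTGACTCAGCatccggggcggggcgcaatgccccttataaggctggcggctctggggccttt
Gclm: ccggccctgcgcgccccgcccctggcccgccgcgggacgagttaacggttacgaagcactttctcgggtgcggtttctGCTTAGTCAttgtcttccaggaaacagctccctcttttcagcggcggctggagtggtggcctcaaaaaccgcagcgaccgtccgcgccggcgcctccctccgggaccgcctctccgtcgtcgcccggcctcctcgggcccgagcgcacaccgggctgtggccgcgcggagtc
Txnrd1: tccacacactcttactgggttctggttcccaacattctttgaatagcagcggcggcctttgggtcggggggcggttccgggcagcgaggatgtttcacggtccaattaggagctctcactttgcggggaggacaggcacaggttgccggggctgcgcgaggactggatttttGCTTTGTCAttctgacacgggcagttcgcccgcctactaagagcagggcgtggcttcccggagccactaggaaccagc
None of the genes with a match rose or fell (below). Gstm1, Nqo1, Gclc and the other Txnrd1 entry had no match, and none of these genes rose or fell. The 3 genes whose transcripts fell also had no match and are shown for comparison. These are Gpx1 (chr8:117905212-117905461, plus strand), Gsta4 (chr8:87947015-87947264, plus strand) and Gstm2 (chr2:198316918-198317167, minus strand).
Gpx1: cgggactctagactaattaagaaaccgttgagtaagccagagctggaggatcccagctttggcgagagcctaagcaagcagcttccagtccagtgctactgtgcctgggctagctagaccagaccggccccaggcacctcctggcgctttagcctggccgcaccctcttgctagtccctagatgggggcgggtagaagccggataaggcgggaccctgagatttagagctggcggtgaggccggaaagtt
Gsta4: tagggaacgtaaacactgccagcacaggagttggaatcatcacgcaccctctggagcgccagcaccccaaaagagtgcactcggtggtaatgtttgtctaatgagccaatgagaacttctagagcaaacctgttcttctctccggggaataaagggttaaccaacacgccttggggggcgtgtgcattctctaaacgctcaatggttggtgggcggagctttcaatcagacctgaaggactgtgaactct
Gstm2: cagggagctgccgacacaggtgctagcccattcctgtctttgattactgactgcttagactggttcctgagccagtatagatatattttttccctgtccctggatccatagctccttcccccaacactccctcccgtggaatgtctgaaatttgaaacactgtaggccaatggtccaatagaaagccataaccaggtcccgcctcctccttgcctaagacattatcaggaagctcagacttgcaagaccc

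The values are MAS5 signals, in which the probes of a set are merged into 1 background-adjusted intensity and whose trimmed mean was the same on every array (2500.7 to 2500.8). Array medians ran from 568 to 691 on GLI1 arrays, against 647 and 696 on parental arrays. Gli1 itself, the check of the labels, had signals of 9092, 3356, 3500.4 and 4611 in GLI1-transformed cells, against 36.0 and 90.8 in parental cells. The GAPDH 3'/5' ratio, which rises as RNA degrades, was 2.09, 1.45, 7.52 and 1.39 on GLI1 arrays, against 3.66 and 1.43 on parental arrays, so the replicate numbered 1 had the higher ratio in each of the 3 groups of 2. Of 10 kidney epithelial markers only Krt8 and Epcam passed the signal filter, and 8, among them Krt18, Cdh1, Cdh16, Pax2 and Umod, did not. Of 7 mesenchymal markers 5 passed the filter and all 5 fell, and the summed signal of the 7 was 16249 to 37225 on GLI1 arrays, against 238966 and 249512 on parental arrays. Of the immune markers, 1 of 5 passed the filter, Cd14, which fell, and the defining marker Ptprc had signals of 14.1 to 81.4 on GLI1 arrays, against 31.3 and 18.6 on parental arrays. Among the immune markers below the filter, Cd74 had 2698 on clone I and 94.6 to 585 on the other GLI1 arrays, against 209 and 113 on parental arrays, and Cd3e had 191 to 374 on GLI1 arrays, against 163 and 180.1 on parental arrays. None of the 4 endothelial markers measured passed. In such bulk RNA, fewer cells of a type and less RNA per cell cannot be told apart, and the part of the marker values in the results below was not tested.

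GLI1-transformed cells were compared with parental cells, the comparison the study states, by limma over the 18625 probe sets with a mean log2 signal above the 40th percentile. "Rose" and "fell" below mean a Benjamini-Hochberg adjusted p under 0.05 over all of these. All 12 probe sets passed the filter. Of these 12, 0 rose, 3 fell (Gpx1, Gsta4 and Gstm2) and 9 did not pass. Over all tested probe sets 13.1% were called, 5.84% as rises and 7.25% as falls. At an unadjusted p under 0.05, 2 of the 12 were higher and 3 lower, where 28.9% of all tested probe sets were below that p, 14.2% higher and 14.7% lower. The median log2 difference of the 12 was -0.05, beside 0.005 over all tested probe sets, and the median size of the difference was 0.56, beside 0.39. The GLI1 arrays lay wholly on one side of the parental arrays for 4 of the 12, against 39.2% of all tested probe sets. They lay below for 3, against 20.2%, and above for 1, against 19%. The members were chosen with earlier results of these data known, so these counts beside the shares are a description and no independent comparison. With median centring in place of the deposited scaling, 60.6% of all calls were rises, against 44.6% here. The samples are titled biological replicates with no word on separate cultures, so a p-value weighs a difference only against the spread of these 6 arrays, whose small number limits every estimate. Clone II gave 2 of the 4 GLI1 arrays and the fit took all 4 as independent, so n = 4 counts arrays and not separately picked foci. The parental cells were untransfected, so GLI1 cannot be told apart here from transfection and the picking of foci.

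**Figure D1:**
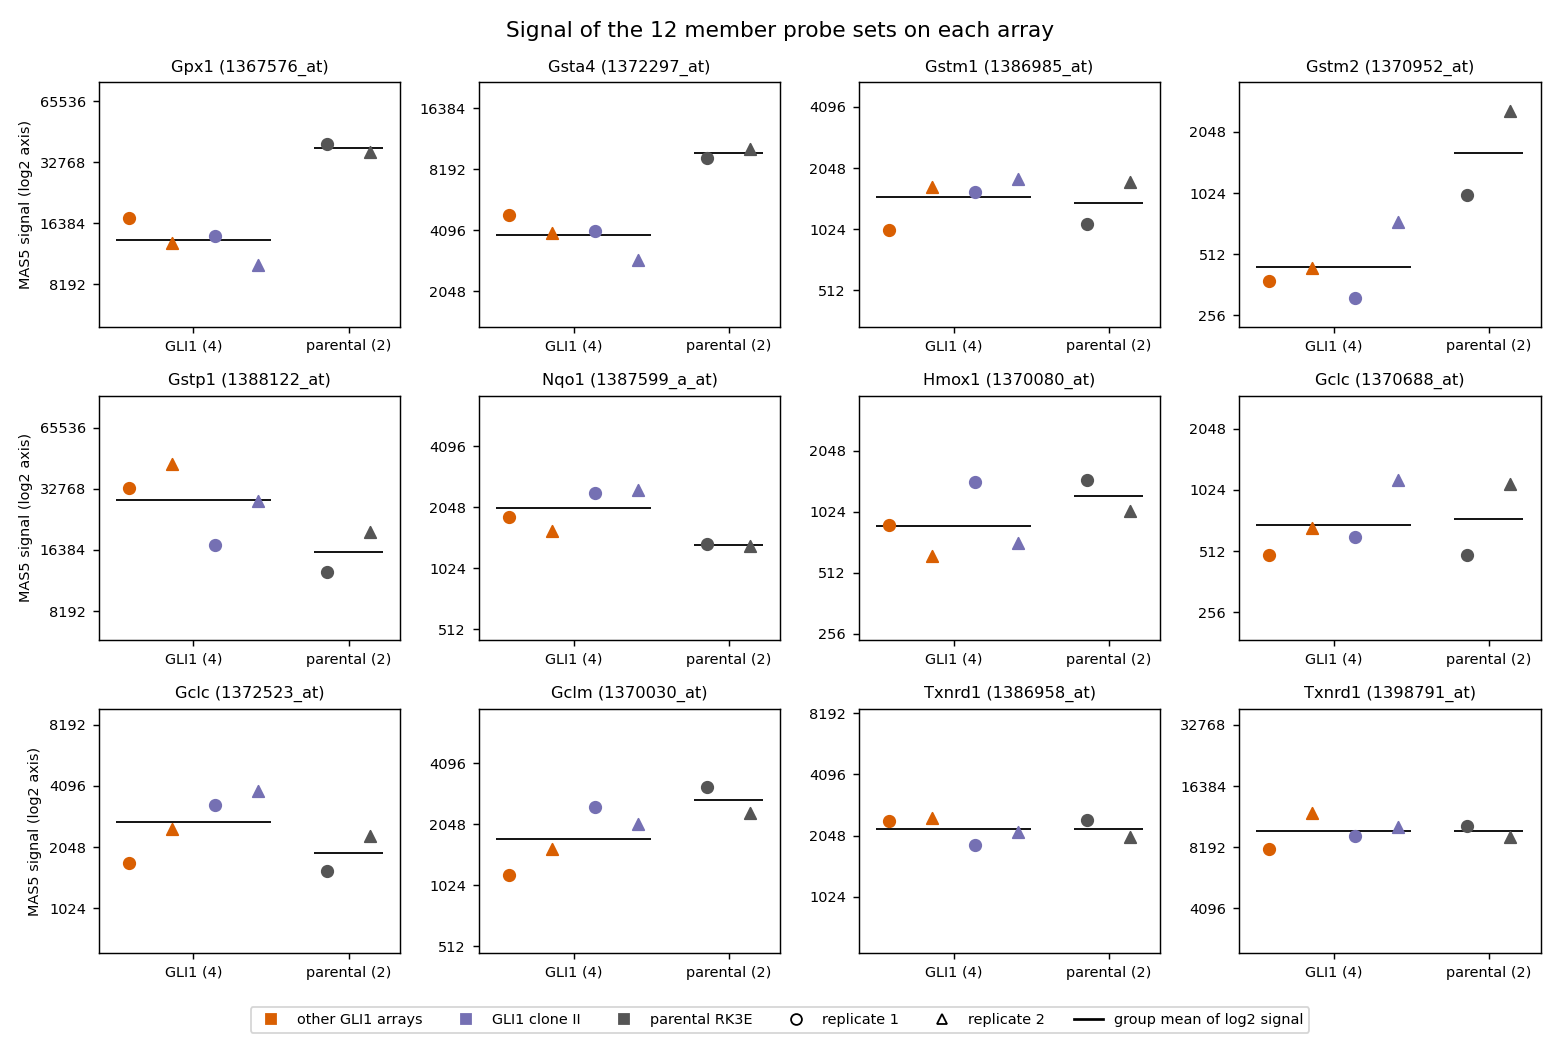
MAS5 signal (log2 axis, spanning the same fold range in each panel) of the 12 probe sets on the 4 GLI1 arrays (left) and the 2 parental arrays (right); lines are group means of log2 signal. All GLI1 points lie below both parental points for Gpx1, Gsta4 and Gstm2 and above both for Nqo1, and the groups overlap in the other 8 panels.

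Among the peroxide-reducing enzymes, Gpx1, the selenium-containing peroxidase that reduces hydrogen peroxide with glutathione, had a signal of 17396, 13137, 14232 and 10257 in GLI1-transformed cells, against 40113 and 36703 in parental cells. The groups did not overlap, and the lowest parental array was more than 2 times the highest GLI1 array. The log2 means were 13.72 ± 0.32 (SD, n = 4) in GLI1-transformed cells and 15.23 ± 0.09 (SD, n = 2) in parental cells. This was a fall of 2.84-fold (log2 -1.51, SE 0.21, 95% interval -1.99 to -1.02, limma adjusted p = 0.00287). A larger absolute difference was found for 5.99% of the tested probe sets. The call held with any 1 of the 6 arrays left out, over log2 differences of -1.63 to -1.37. With both arrays of highest GAPDH ratio (clone II replicate 1 and parental replicate 1) left out, the difference was -1.47 and no longer passed (adjusted p = 0.0854, range over all alternatives 0.00126 to 0.0854).

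The alpha-class transferase gene Gsta4, whose enzyme clears hydroxynonenal and other aldehydes of lipid peroxidation, had a signal of 4877, 3947, 4035 and 2915 in GLI1-transformed cells, against 9322 and 10307 in parental cells. Every GLI1 array was below both parental arrays. Within the GLI1 arrays Gsta4 and Gpx1 were both highest on the array with no clone named and lowest on clone II replicate 2. The log2 means of Gsta4 were 11.92 ± 0.31 (SD, n = 4) in GLI1-transformed cells and 13.26 ± 0.10 (SD, n = 2) in parental cells, a fall of 2.53-fold (log2 -1.34, SE 0.23, 95% interval -1.85 to -0.82, limma adjusted p = 0.00641). The direction held with each array left out, but the call was lost without parental replicate 1 (-1.41, adjusted p = 0.0642), without parental replicate 2 (-1.26, 0.0743) or without both arrays of highest GAPDH ratio (-1.43, 0.109). The adjusted p ran from 0.00354 to 0.109 over all alternatives.

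The mu-class genes Gstm1 and Gstm2, which stand next to each other on rat chromosome 2 with 0 annotated genes between them, encode enzymes that conjugate epoxides and other electrophiles. Gstm2 had a signal of 379, 436, 310.4 and 741 in GLI1-transformed cells, against 1006 and 2607 in parental cells. All GLI1 arrays lay below both parental arrays, and the parental pair differed by more than 2-fold. The log2 means were 8.79 ± 0.54 (SD, n = 4) in GLI1-transformed cells and 10.66 ± 0.97 (SD, n = 2) in parental cells, a fall of 3.67-fold (log2 -1.88, SE 0.48, 95% interval -2.95 to -0.80, limma adjusted p = 0.0331). It was the largest difference of the 12 and also the one most moved by single arrays. It was -2.56 (adjusted p = 0.0519) when parental replicate 1 was left out and -1.19 (0.271) when parental replicate 2 was. It was also not called without clone I, at -1.87 (0.0718), without clone II replicate 1 -1.71 (0.0569), and without both arrays of highest GAPDH ratio -2.39 (0.0796), with a range of 0.0136 to 0.271 over all alternatives. On each of the 3 pairs of arrays within a group, Gstm2 was lower on the array with the higher GAPDH ratio.

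Gstm1 had a signal of 1016, 1653, 1557 and 1806 in GLI1-transformed cells, against 1083 and 1739 in parental cells. The groups overlapped, with a log2 difference of 0.10 (SE 0.32, 95% interval -0.61 to 0.82, adjusted p = 0.869), and the interval allows a change of 1.76-fold upward. The log2 signal of Gstm2 minus that of Gstm1 was -1.42, -1.92, -2.33 and -1.29 in GLI1-transformed cells, against -0.11 and 0.58 in parental cells. This within-array difference was thus lower on every GLI1 array, by 1.98 on average. The comparison of these neighbours was chosen after their values were seen and is given with no test. The mu-class genes are a family of close paralogs, and whether a probe set also picks up another member was not tested.

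Gstp1, the pi-class transferase, had a signal of 32921, 43543, 17341 and 28669 in GLI1-transformed cells, against 12795 and 20109 in parental cells. Of the GLI1 arrays 3 were above both parental arrays, while clone II replicate 1 lay between them. The log2 difference was 0.86 (SE 0.34, 95% interval 0.09 to 1.62, limma adjusted p = 0.132). Without clone II replicate 1, the array of the highest GAPDH ratio, the difference was 1.11 and passed (adjusted p = 0.0294, range over all alternatives 0.0294 to 0.583). The difference was 0.53 with parental replicate 1 left out, 0.66 with clone I left out and 1.18 with parental replicate 2 left out.

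**Figure D2:**
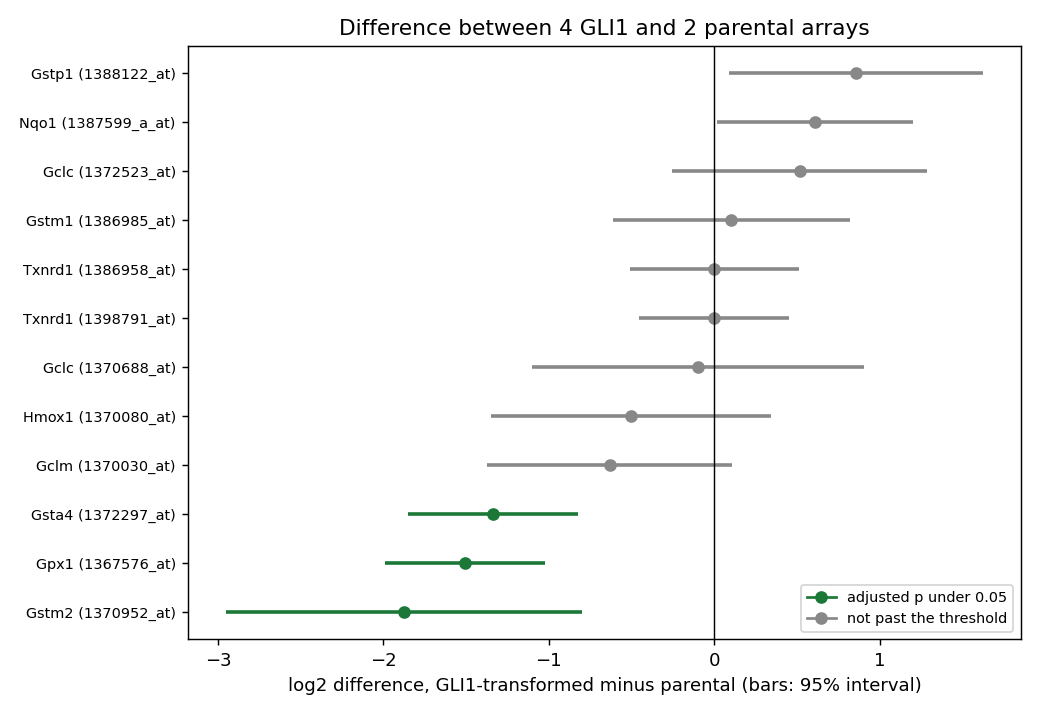
Log2 difference in signal, GLI1-transformed minus parental, for the 12 probe sets, with 95% intervals from limma. Gstm2, Gpx1 and Gsta4 passed the threshold, at -1.88, -1.51 and -1.34; the intervals of Gstp1 (0.86) and Nqo1 (0.61) lie above 0 but these did not pass after adjustment.

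Nqo1, which encodes the quinone reductase often read as a reporter of NRF2 activity, had a signal of 1839, 1557, 2406 and 2495 in GLI1-transformed cells, against 1347 and 1322 in parental cells. All GLI1 arrays were above both parental arrays, which differed little from each other. The log2 difference was 0.61 (SE 0.26, 95% interval 0.02 to 1.20, limma adjusted p = 0.161), and it passed under none of the alternatives (adjusted p 0.108 to 0.56). Hmox1, which encodes the inducible enzyme that opens the heme ring, had a signal of 876, 621, 1437 and 721 in GLI1-transformed cells, against 1467 and 1028 in parental cells. The groups overlapped through clone II replicate 1, with a log2 difference of -0.50 (SE 0.37, 95% interval -1.35 to 0.34, adjusted p = 0.42). With 1 array left out this ran from -0.76 (without parental replicate 2) to -0.25 (without parental replicate 1). Hmox1 was higher on the array with the higher GAPDH ratio in each of the 3 groups.

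Glutathione synthesis is limited by glutamate-cysteine ligase, a dimer of the catalytic subunit Gclc and the modifier subunit Gclm. Gclm had a signal of 1145, 1544, 2498 and 2061 in GLI1-transformed cells, against 3124 and 2322 in parental cells. The groups overlapped only in that clone II replicate 1 exceeded parental replicate 2, and the log2 difference was -0.63 (SE 0.33, 95% interval -1.37 to 0.11, adjusted p = 0.242). The brighter Gclc probe set (1372523_at) had a signal of 1709.9, 2528, 3304.5 and 3858 in GLI1-transformed cells, against 1562 and 2323.5 in parental cells. Its log2 difference was 0.52 (SE 0.34, 95% interval -0.25 to 1.29, adjusted p = 0.359), and it was 0.23 without parental replicate 1, 0.80 without parental replicate 2 and 0.14 without both arrays of highest GAPDH ratio. The dimmer one (1370688_at) had a signal of 489, 661.5, 601 and 1141 in GLI1-transformed cells, against 492 and 1094 in parental cells. It spread over more than 2-fold within both groups, gave -0.10 (SE 0.44, 95% interval -1.10 to 0.91, adjusted p = 0.913), and changed sign under 4 alternatives. Neither subunit gene passed on any of these 3 probe sets.

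Txnrd1, the cytosolic thioredoxin reductase, had nearly equal group means on both of its probe sets. The brighter set (1398791_at) had a signal of 8006, 12050.1, 9242 and 10339 in GLI1-transformed cells, against 10446 and 9199.7 in parental cells, and the log2 difference was -0.001 (SE 0.20, 95% interval -0.45 to 0.45, adjusted p = 0.999). The dimmer set (1386958_at) had a signal of 2412, 2513, 1847 and 2142.5 in GLI1-transformed cells, against 2439.8 and 2004.5 in parental cells, with a difference of 0.001 (SE 0.23, 95% interval -0.51 to 0.51, adjusted p = 0.999). These intervals reach 1.37-fold and 1.43-fold upward. Leaving out 1 array changed the sign of either estimate, and median centring changed that of the brighter set.

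**Figure D3:**
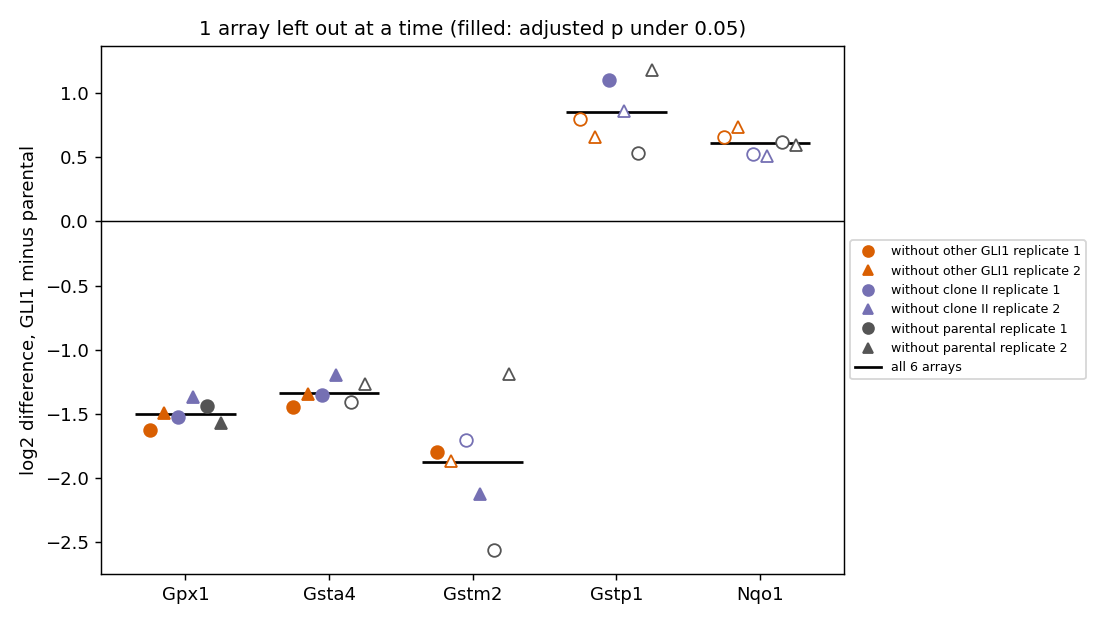
Log2 difference, GLI1-transformed minus parental, with 1 array left out at a time, for the 5 genes with an unadjusted p under 0.05; black lines show all 6 arrays and filled symbols an adjusted p under 0.05. Gpx1 stayed past the threshold throughout, at -1.63 to -1.37, while Gstm2 ranged from -2.56 to -1.19.

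The array with the higher GAPDH ratio was the replicate numbered 1 in every group, so the ratio and anything else that goes with the replicate number cannot be told apart. On 5 of the 12 probe sets (Gstm1, Gstm2, Gstp1 and both of Gclc) the array with the higher GAPDH ratio was the lower one in all 3 groups, against 15.2% of all tested probe sets, and on 2 (Gpx1 and Hmox1) it was the higher one in all 3, against 17.7%. The part of this in the differences was not tested. The values without clone II replicate 1 and parental replicate 1 are given above for the genes that fell. With those arrays left out 0 of the 12 were called, and 1.75% of all tested probe sets were.

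Clone II was then compared with the other GLI1 arrays, in a model with the parental arrays as a group of their own. Of the 2 other arrays, 1 is of clone I and 1 has no clone named, so the latter is not known to be of another line. Of the 12 probe sets 0 differed by limma after adjustment, where 0.129% of all tested probe sets (24) did, 0.0161% higher and 0.113% lower in clone II. An unadjusted p under 0.05 was found for 3 of the 12, beside 8.65% of all tested probe sets. Gstp1 was lower in clone II by 0.76 on the log2 scale (95% interval -1.47 to -0.06, adjusted p = 0.547). The brighter Gclc probe set was higher by 0.78 (95% interval 0.09 to 1.47, adjusted p = 0.523), and Gclm by 0.77 (95% interval 0.12 to 1.42, adjusted p = 0.495). With 1 array left out these differences ran from -1.13 to -0.40 for Gstp1, from 0.50 to 1.06 for Gclc and from 0.56 to 0.99 for Gclm. Without both arrays of highest GAPDH ratio, 1 of them of clone II, they were -0.40 for Gstp1, 0.89 for Gclc and 0.63 for Gclm. Against the parental mean, which both comparisons share, Gclm stood at -0.25 in clone II and -1.02 in the other GLI1 arrays, and Gstp1 at 0.47 in clone II and 1.24 in the other GLI1 arrays. For the genes that fell the values were alike in sign: Gpx1 stood at -1.67 in clone II and -1.34 in the other GLI1 arrays, Gsta4 at -1.51 and -1.16, and Gstm2 at -1.76 and -1.99. The difference between clone II and the others had intervals of -0.85 to 0.21 for Gpx1, -0.90 to 0.19 for Gsta4 and -1.06 to 1.53 for Gstm2.

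**Figure D4:**
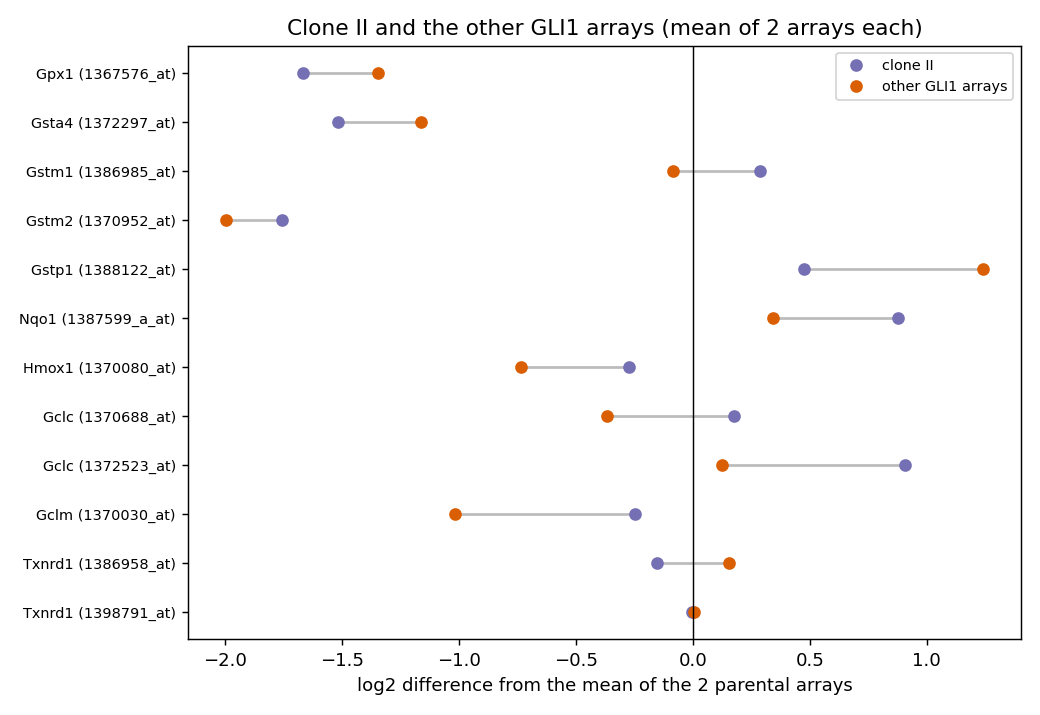
Log2 difference from the parental mean for clone II (mean of 2 arrays) and the other GLI1 arrays (mean of 2) on each of the 12 probe sets. Both lie below 0 for Gpx1, Gsta4 and Gstm2; the widest separations are those of Gclc (1372523_at), Gclm and Gstp1, none of which passed after adjustment.

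Other genes of glutathione and redox metabolism were examined through 9 lists of 130 genes, of which 117 were on the array and 92 passed the filter, taking for each gene its probe set of highest mean. Of these 92, 6 rose, 3 fell and 83 did not pass, 9.78% called beside 13.1% of all tested probe sets. The 13.1% counts every tested probe set and not 1 per gene, and it was 17.5% with the filter at the 60th percentile. The median log2 difference was 0.12, beside 0.005. The lists, like the members, were chosen with earlier results of these data known, so this too is a description. With 1 array left out the counts ran from 1 to 10 risen and 2 to 4 fallen, the lowest count of rises being that without parental replicate 1 and 2 rises remaining without parental replicate 2. With the GLI1 array of unnamed clone left out 10 rose, and with clone I left out 3 rose. With both arrays of highest GAPDH ratio left out 0 rose and 1 fell.

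Of 14 genes of glutathione synthesis, recycling and breakdown, 2 rose and 0 fell (3 and 0 at an unadjusted p under 0.05), with a median of 0.19. Slc7a11, the transporter subunit that brings in cystine for glutathione synthesis, had a signal of 6701, 2683, 2928 and 1947 in GLI1-transformed cells, against 844 and 819 in parental cells, a rise of 3.83-fold (log2 1.94, SE 0.43, adjusted p = 0.0199). Every GLI1 array was more than 2 times either parental array. Ggct, which breaks down gamma-glutamyl peptides derived from glutathione, rose 2.19-fold (log2 1.13, SE 0.26, adjusted p = 0.0235). The calls of both genes were lost without both arrays of highest GAPDH ratio (0.203 and 0.207) and without either parental array, with adjusted p of 0.139 and 0.12 for Slc7a11 and of 0.128 and 0.157 for Ggct, and that of Ggct also without clone I (0.0545). Over all alternatives the adjusted p ran from 0.00607 to 0.203 for Slc7a11 and from 0.00975 to 0.207 for Ggct.

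Of 4 other glutathione peroxidases, 0 rose and 1 fell (0 and 2 unadjusted). Gpx8, a peroxidase of the endoplasmic reticulum, had a signal of 14155, 16106, 17314 and 15569 in GLI1-transformed cells, against 23484 and 27851 in parental cells, a fall of 1.62-fold (log2 -0.70, SE 0.16, adjusted p = 0.0244). Its call was lost with median centring (-0.54, adjusted p = 0.134), with no intensity trend in the variance model (0.0683) and without clone I (0.0569). It was also lost without either parental array and without both arrays of highest GAPDH ratio, where the log2 difference was -0.87. The related Gpx7, named after its values were seen, gave -0.68 (adjusted p = 0.0512). With the filter at the 60th percentile 2 of these peroxidases fell.

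Of 13 other glutathione transferases, 1 rose and 1 fell (1 and 2 unadjusted), with a median of 0.26. Mgst2, a membrane-bound transferase that can also make leukotrienes, had a signal of 718, 449, 1362 and 611 in GLI1-transformed cells, against 7267 and 5163 in parental cells. This was a fall of 8.51-fold (log2 -3.09, SE 0.41, adjusted p = 0.00212), the widest of the 92 genes, and it stayed past the threshold under all 15 alternatives. Gsto1, the omega-class enzyme that reduces dehydroascorbate and mixed disulfides, had a signal of 50859, 48119.8, 53893 and 37783 in GLI1-transformed cells, against 20129 and 18103 in parental cells. It rose 2.48-fold (log2 1.31, SE 0.18, adjusted p = 0.00254) and held with any 1 array left out. Without both arrays of highest GAPDH ratio its log2 difference was 1.32 and was not called.

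Of 23 thioredoxin, peroxiredoxin and glutaredoxin genes, 2 rose and 1 fell (3 and 2 unadjusted), with a median of 0.06. Msrb3, which repairs oxidised methionine, had a signal of 4302, 3694.5, 3999 and 3915 in GLI1-transformed cells, against 10576 and 9417 in parental cells. It fell 2.51-fold (log2 -1.33, SE 0.17, adjusted p = 0.00191), as did its second probe set (-1.35, adjusted p = 0.0144). Its call held with any 1 array left out and was lost without both arrays of highest GAPDH ratio, at a log2 difference of -1.25. Prdx3, the mitochondrial peroxiredoxin, rose 1.81-fold (log2 0.86, SE 0.19, adjusted p = 0.0189), and Sesn2, a stress-induced regulator of mTOR signalling, rose 2.46-fold (log2 1.30, SE 0.30, adjusted p = 0.0227). A second probe set of Sesn2 gave 0.22 (adjusted p = 0.849). A second probe set of Glrx2, a mitochondrial glutaredoxin named after its values were seen, rose (0.94, adjusted p = 0.0424), while the one used gave 0.46 (0.112). Prdx3 lost its call with no intensity trend (0.0557) and without clone I (0.052) or either parental array (0.111 and 0.138), and Sesn2 without either parental array (0.213 and 0.0784). Both lost it without both arrays of highest GAPDH ratio, at log2 differences of 0.88 for Prdx3 and 1.12 for Sesn2.

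Of 12 quinone and phase 2 detoxification genes, 1 rose and 0 fell (1 and 2 unadjusted), with a median of 0.003. Cbr1, a carbonyl reductase, rose 2.10-fold (log2 1.07, SE 0.26, adjusted p = 0.0304), a call that remained with 1 of the 6 arrays left out in turn (the array with no clone named) and ranged in adjusted p from 0.00349 to 0.36. None of the 4 superoxide dismutase and catalase genes, 6 heme and iron genes, 7 NADPH supply genes or 9 genes of NRF2 and its regulators was called by limma, where 1, 0, 1 and 1 had an unadjusted p under 0.05. The medians of these lists were 0.36, 0.22, 0.001 and 0.14. Nfe2l2, which encodes NRF2 and is named here after its values were seen, had a signal of 12475, 17274, 24154 and 21711 in GLI1-transformed cells, against 14041 and 13447 in parental cells (log2 0.42, SE 0.26, adjusted p = 0.325). The RNA of its inhibitor gene Keap1 gave a log2 difference of 0.14 (SE 0.29, adjusted p = 0.802). A second probe set of Keap1 gave -0.385 (SE 0.464, limma adjusted p = 0.638).

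**Figure D5:**
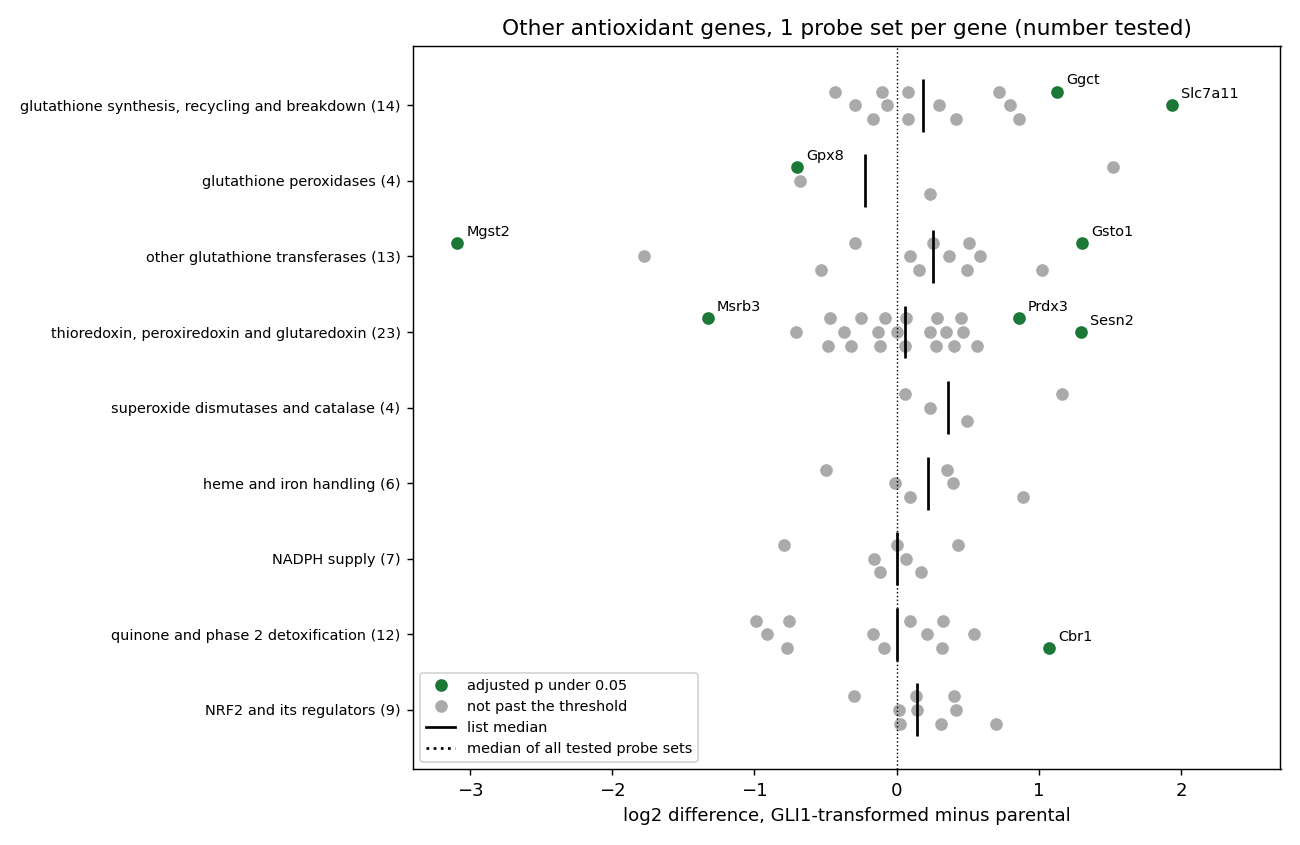
Log2 difference, GLI1-transformed minus parental, for 92 other antioxidant genes in 9 lists, 1 point per gene, with called genes in green and named. The calls go both ways, from Mgst2 at -3.09 to Slc7a11 at 1.94, and the list medians lie between -0.22 and 0.36.

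The genes most like Gstm2, the called member of largest change, were sought by Pearson correlation of log2 signal over the 6 arrays among 10239 named genes with 1 probe set each. The closest were Tln2 (r = 0.9951), Serpinb6a (r = 0.9896) and Mmp16 (r = 0.9866), and 1 gene had an r above 0.99. These are given as a description, since they rest on 6 points that share the groups and the arrays' RNA integrity. The log2 differences between groups were -0.56 for Tln2 (adjusted p = 0.212), -0.77 for Serpinb6a (0.0433) and -0.37 for Mmp16 (0.33).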

How the data were processed

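The deposited intensity values are linear MAS5 signals, with 1 value for each probe set on each array, per the submitters' processing notes, which name no version. MAS5 merges perfect-match and mismatch probes, so dim signals are noisy, and scales each array to a common trimmed mean. Detection calls were not used here.

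Signals under 1 were set to 1 and log2 was taken. After 57 control probe sets were left out, probe sets whose mean log2 exceeded the 40th percentile (8.33, or a signal of 322) went into tests with limma 3.58.1 in R 4.3.3 (lmFit, eBayes with intensity trend), two-sided, and p-values were adjusted by Benjamini-Hochberg across the 18625. GLI1 against parental had 4 residual degrees of freedom and the 3-group model 3. Folds are 2 to the power of the log2 difference. As a check of the code, the fits were run on simulated data with independent noise on each array. These data held no clones and no differences in RNA integrity, so the check does not bear on either.

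Symbols came from the platform annotation (20826 probe sets with 1 symbol, 436 with several, 9780 with none), of which 20758 matched RefSeq's rat genes (GRCr8). The named genes are all members, from each list the called genes of smallest adjusted p (at most 3) and up to 2 of the minority direction, Gli1, and the 3 genes most like the called member of largest rise and of largest fall. The members and lists were chosen with earlier results of these data known. Markers and lists were applied as listed, and alternatives covered scaling, an added constant, the filter, the variance model, a replicate block and arrays left out. The highest number of identical values in a pair of arrays was 16, so no array was a repeat of another.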

Additional observations from a re-analysis of the deposited data

Results flagged for a closer look

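Among the 21 probe sets of the members and the named companion genes, 2 had a GLI1 array that stood apart from the other 3. For Sesn2 the array with no clone named was high, at a log2 signal of 13.22 beside 12.41 for the next array, a gap of 0.8294 of the range over the 4 GLI1 arrays, marginally above Dixon's critical value. For Cbr1 the same array was low, at 13.53 beside 14.27, a gap of 0.8323 of the range. Chance flags about 1 in 20 groups, so 1 flag in 21 would be usual.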

How the results depend on the processing

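Gpx1, Gsta4 and Gstm2 kept their sign under every alternative run. All 3 passed the threshold under both other scalings, an added constant of 32, no filter, either variance model and the replicate block. Gstm2 passed narrowly in several of these by limma. Its adjusted p was 0.0402 with median centring, 0.0449 with quantile normalization, 0.047 with no intensity trend and 0.0499 with no filter. Gstm2 lay below the filter at the 60th percentile and was not tested there. With both arrays of highest GAPDH ratio left out, 158 probe sets rose and 168 fell, 0 member probe sets fell, 0 companion genes rose and 1 fell, and 9 probe sets differed in the clone comparison (clone II against the other GLI1 arrays). With 1 array left out, all rises ran from 244 to 1393, all falls from 281 to 1711, member rises from 0 to 1, member falls from 1 to 3, companion rises from 1 to 10, companion falls from 2 to 4 and the clone comparison from 1 to 80. Where 1 parental array is left, it is assumed to vary like the other groups. The clone comparison gave 37 calls with median centring, 10 with quantile normalization, 11 with no filter, 4 with the filter at the 60th percentile and 4 with no intensity trend, which also gave 705 rises in all. Median centring made 60.6% of all calls rises against 44.6% in the reported fit, and the median difference over all probe sets was 0.165 with it and 0.005 without. The cause of these changes was not tested.

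The labels give the groups the same replicate numbers, but same-numbered arrays did not all deviate together, so the numbers were not taken as pairs. The correlations of replicate 1 minus replicate 2 were 0.104 between the other GLI1 arrays and clone II and 0.068 between the other GLI1 arrays and parental. Between clone II and parental, whose replicate 1 arrays had the highest GAPDH ratios (7.52 and 3.66), the correlation was 0.321. The part of the ratio in this was not tested. With the replicate number as a block 1190 probe sets rose and 1437 fell, 8 companion genes rose and 5 fell (2 of them glutathione peroxidases), 3 member probe sets fell and the clone comparison gave 89 calls.

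Estimates that changed sign follow. For GLI1 against parental, Gclc (1370688_at) was 0.064 with median centring, 0.017 with quantile normalization and -0.673 to 0.479 with 1 array left out. Txnrd1 (1398791_at) was 0.160 with median centring, 0.119 without both arrays of highest GAPDH ratio and -0.100 to 0.096 with 1 array left out, and Txnrd1 (1386958_at) was -0.141 to 0.143. Gstm1 was -0.265 without both of those arrays and -0.239 to 0.444 with 1 left out. For clone II against the other GLI1 arrays, Txnrd1 (1398791_at) was 0.124 with median centring, 0.074 without both arrays and -0.302 to 0.288 with 1 left out, Hmox1 was -0.034 without both arrays and -0.034 to 0.962 with 1 left out, and Gstm2 was -0.389 to 0.866. The longer element core left the count of promoters with a match at 3.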

Other observations

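Between clone II and the other GLI1 lines, 0 of the 92 companion genes passed adjustment by limma and 11 had an unadjusted p under 0.05, beside 8.65% of all tested probe sets. The 4 described first are those of largest difference in size, a choice made after the values were seen. Gpx2, a glutathione peroxidase best known from gut epithelium, had a signal of 222 and 458 in clone II, against 1475 and 1969.8 in the other GLI1 arrays, with 274 and 239.6 in parental cells (clone II minus other GLI1, log2 -2.42, SE 0.46, adjusted p = 0.141). Gsta1, an alpha-class transferase, had 1732 and 727 in clone II, against 266 and 248 in the other GLI1 arrays, with 791 and 762 in parental cells (2.12, SE 0.47, adjusted p = 0.178). Sod2, the mitochondrial superoxide dismutase, had 9837 and 9401 in clone II, against 2421 and 5307 in the other GLI1 arrays, with 2331 and 2962 in parental cells (1.42, SE 0.35, adjusted p = 0.229). Mgst1, a membrane-bound transferase, had 18941 and 6512.5 in clone II, against 6528 and 1901 in the other GLI1 arrays, with 26247 and 17584 in parental cells (1.66, SE 0.62, adjusted p = 0.499). Anpep and Slc40a1 (-1.27 and 1.22, limma adjusted p = 0.198 and 0.334) differed less in size but had a smaller p than Mgst1. So did Cbr3, Me1 and Nfe2l2 (1.41, 0.66 and 0.64, limma adjusted p = 0.421, 0.421 and 0.416). The others with an unadjusted p under 0.05, Sqstm1 and Abcc4, were lower in clone II (-0.63 and -0.66, limma adjusted p = 0.569 and 0.571). Krt8 and Epcam, epithelial markers, also differed between these arrays. Krt8 had 539 and 599 in clone II, against 4283.5 and 6092 in the other GLI1 arrays, with 1085 and 1355 in parental cells (log2 -3.17, limma adjusted p = 0.0157). Epcam had 601 and 430.6 in clone II, against 2177 and 1912 in the other GLI1 arrays, with 437 and 485 in parental cells (limma adjusted p = 0.106). The part of this in the 4 genes was not tested.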
